A study of Homo sapiens with 42 samples.

Results

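Chromatin accessibility was compared between MCF10A cells treated with oncostatin M (OSM) and cells treated with transforming growth factor beta together with epidermal growth factor (TGFB+EGF). MCF10A is a human breast epithelial cell line that is established and does not form tumours. The 12 libraries compared were the 3 OSM and 3 TGFB+EGF libraries taken at 24 h and the 3 and 3 taken at 48 h, chosen by their titles out of 42 libraries in the series. OSM and TGFB were each given at 10 ng/ml. All cells had first been kept without added EGF or insulin, in a medium that still held horse serum, hydrocortisone and cholera toxin. OSM was added without EGF, so the direct comparison of both ligands also contains the difference between no EGF and EGF. For this reason each ligand was also set against its own medium, which was the vehicle PBS for OSM (6 libraries) and EGF alone for TGFB+EGF (8 libraries). Untreated cells at 0 h (CTRL, 4 libraries), HGF (6) and IFNG with EGF (6) are used only as a background. All libraries came from 1 cell line. The study's methods call its samples biological replicates, and the labels give replicates A to D without saying whether a letter marks a shared culture or day.

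ATAC-seq marks DNA that the Tn5 transposase can reach, and an open site is often one where transcription factors are bound. OSM binds a receptor that contains gp130 and activates JAK kinases and the transcription factor STAT3. TGFB binds a receptor kinase pair that phosphorylates SMAD2 and SMAD3, which bind DNA with SMAD4 at short half-sites. AP-1 factors (FOS and JUN) and TEAD factors, the DNA-binding partners of YAP and TAZ, bind many enhancers of epithelial cells, and C/EBP factors act in differentiation and in acute-phase responses. The 2 ligands were compared because both change cell shape in this line: OSM gathers cells into tight clusters, whereas TGFB+EGF gives larger, more spread cells.

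A site here is a stretch of DNA obtained by merging the overlapping peaks of these 12 libraries. There were 116506 such sites, and 81750 had a peak in at least 2 libraries. The number of reads behind each library is unknown, and peak numbers differed widely. With OSM at 24 h, replicates A, B and C had 109778, 51317 and 42788 peaks, and at 48 h they had 77169, 11798 and 35947. With TGFB+EGF the numbers were 108125, 7540 and 5760 for 24 h and 22651, 4217 and 56140 for 48 h. The groups overlapped, and the difference of 0.42 on the log10 scale did not pass an exact permutation test within time (two-sided p = 0.165). The study discarded libraries with a low fraction of reads in peaks, and of these 12 it kept 5: OSM 24 h A and B, OSM 48 h A, TGFB+EGF 24 h A and TGFB+EGF 48 h C. In the kept libraries the difference in peak number was -0.01. These 5 are called the kept libraries below. Because a library with many peaks finds most sites whatever their kind, the site fits, the motif deviations and the ratios of detected to expected sites were adjusted: each library was compared with the rate at which it detected all sites found in the same number of libraries. The OSM-only and TGFB+EGF-only classes, their shares, the gene counts, the promoter share and the overlap of strongest peaks rest on peaks as called, without that adjustment.

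Most promoters of basal epithelial marker genes were open in the libraries with many peaks and few in the others. Of 10 basal epithelial markers, 1 to 9 (median 8) had a peak within 1000 bp of a start in the OSM libraries and 0 to 9 (median 2) in the TGFB+EGF libraries. The same held for 10 housekeeping genes, at 2 to 10 (median 7.5) and 0 to 9 (median 3.5), so these counts moved with peak number, and its part in them was not tested. Luminal markers numbered 1 to 4 (median 4) and 0 to 4 (median 1) of 10. Of 12 blood, endothelial and fibroblast markers, only CD68 had a peak, in 6 OSM and 5 TGFB+EGF libraries. The basal marker TP63 and the luminal markers ESR1, PGR and GATA3 had no promoter peak in any of the 12 libraries. In bulk chromatin, fewer cells with a site open and less opening per cell cannot be told apart.

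**Figure D1:**
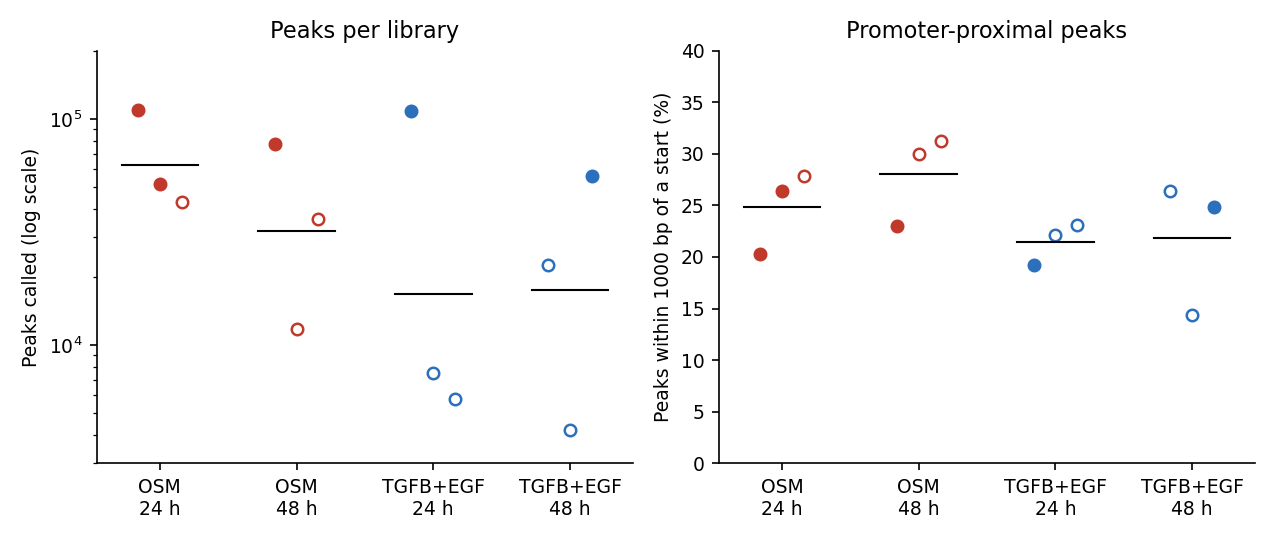
Peaks per library (log axis) and the share of them near a promoter (percent) for OSM and TGFB+EGF at 24 h and 48 h, with 1 point per library, filled for the 5 libraries kept by the study and open for the others, and a bar at the group mean (geometric for peaks). The OSM and TGFB+EGF points overlap at both times, and the lowest library is TGFB+EGF 48 h B with 4217 peaks.

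The sequences below show what the sites open with 1 ligand look like. OSM-only sites are those with a peak in all 3 kept OSM libraries and in neither kept TGFB+EGF library, and TGFB+EGF-only sites the reverse. Each line is 81 bases around a summit, on the plus strand of hg38. Capitals mark strings of known factors, on either strand: TTCCNGGAA for STAT, TTGCNNAA for C/EBP, GGAATG for TEAD, CAGACA for the SMAD half-site and TGANTCA for AP-1. A TEAD string on the minus strand reads CATTCC, and a SMAD half-site reads TGTCTG. They were picked after their values were seen, from the stronger sites that carry the strings described below, and are examples only.
OSM-only, 40392 bp from CEP170, intergenic, chr1:243116389-243116469 (STAT): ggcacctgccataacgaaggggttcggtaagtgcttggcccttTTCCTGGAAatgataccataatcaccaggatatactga
OSM-only, 88786 bp from CYLD, intergenic, chr16:50838295-50838375 (C/EBP and STAT): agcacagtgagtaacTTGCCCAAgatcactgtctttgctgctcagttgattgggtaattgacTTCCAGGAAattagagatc
OSM-only, intron of GPR141, chr7:37694359-37694439 (C/EBP): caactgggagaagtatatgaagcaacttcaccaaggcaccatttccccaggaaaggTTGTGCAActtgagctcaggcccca
OSM-only, 2948 bp from SLC23A1, intergenic, chr5:139386205-139386285 (C/EBP, at 2 places): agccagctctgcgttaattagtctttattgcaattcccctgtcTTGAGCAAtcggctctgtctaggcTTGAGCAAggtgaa
TGFB+EGF-only, intron of GATA6, chr18:22186829-22186909 (SMAD, TEAD and AP-1): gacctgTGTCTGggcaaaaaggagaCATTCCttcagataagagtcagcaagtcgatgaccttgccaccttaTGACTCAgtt
TGFB+EGF-only, 92307 bp from TLN2, intergenic, chr15:62850857-62850937 (TEAD and SMAD, which overlap): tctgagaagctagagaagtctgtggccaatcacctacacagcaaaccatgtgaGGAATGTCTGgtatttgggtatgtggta

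Peak strength at these sites is given as the negative log10 p that the authors' peak caller gave, with 0 where no peak was called. The CEP170 site had 47.0, 13.3 and 5.46 in the OSM libraries at 24 h, 27.3, 0 and 13 at 48 h, and 0 in all 6 TGFB+EGF libraries. It had no peak in PBS, but a peak in 2 EGF, 4 CTRL, 4 HGF and 5 IFNG with EGF libraries. The GPR141 site had 54, 18.5 and 18.4 at 24 h, then 76.5, 9.45 and 23.1 at 48 h with OSM, and 0 in every TGFB+EGF library. Here all 6 PBS and all 8 EGF libraries had a peak, so this C/EBP-bearing site set TGFB+EGF apart from the media rather than OSM. The GATA6 site had a peak only in the 2 kept TGFB+EGF libraries, at 44.8 and 16.1, and in 3 CTRL libraries.

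Of 113762 sites with a peak in any kept library, 1096 (0.963%) were OSM-only, 2068 (1.82%) were TGFB+EGF-only and 30813 had a peak in all 5. The TGFB+EGF-only count is helped by its rule, since 2 libraries and not 3 had to hold the site. Few of either class lay near a promoter: 4.20% of OSM-only and 2.03% of TGFB+EGF-only sites, against 29.1% of the sites found in all 5. They were also narrow, with a median width of 419 bp and 348 bp against 664 bp.

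The strings near the summits, within 100 bp, separated the classes, although the rule used no sequence. The STAT string was found in 3.38% of OSM-only sites, 0.82% of TGFB+EGF-only sites and 1.06% of sites open in all 5. The C/EBP string was found in 32.8%, 9.24% and 12%. Both strings of the OSM-only class were thus more frequent there than in the shared sites and less frequent in the TGFB+EGF-only sites. The TEAD string went the other way, with 11.6% of OSM-only, 32.9% of TGFB+EGF-only and 15.9% of shared sites. The SMAD half-site, a short string that is common by its length, was found in 15.4%, 27.9% and 16.3%. AP-1 was found in 33.5%, 39.8% and 39.7%, and RUNX (TGTGGTT) in 9.31%, 8.99% and 6.45%, so neither set the 2 classes far apart. The shared sites were more often near a promoter, as given above. Among sites over 1000 bp from a start, 53.6% of shared sites held AP-1, against 34.4% of OSM-only and 39.98% of TGFB+EGF-only sites. RUNX was found there in 9.62% of OSM-only, 8.98% of TGFB+EGF-only and 8.32% of shared sites. STAT, C/EBP, TEAD and the SMAD half-site kept the order of the classes there, with shared shares of 1.16%, 15.3%, 19.5% and 19.6%. For comparison, of the 81750 sites that 2 or more libraries held 1.02% held a STAT, 13.9% a C/EBP, 16.7% a TEAD, 17.3% a SMAD and 41.1% an AP-1 string. These shares are a description of sites chosen on 5 libraries, and sites are not replicates, so no test is given.

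Strings also occurred together. A TEAD and a SMAD string stood in 190 TGFB+EGF-only sites (9.19%), in 15 OSM-only sites (1.37%) and in 2.96% of the shared sites. A C/EBP and an AP-1 string stood in 115 OSM-only sites (10.5%), in 65 TGFB+EGF-only sites (3.14%) and in 5.42% of the shared sites. These pair shares follow from the shares of the single strings and are not a separate finding, and AP-1 alone was less frequent in OSM-only than in shared sites.

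**Figure D2:**
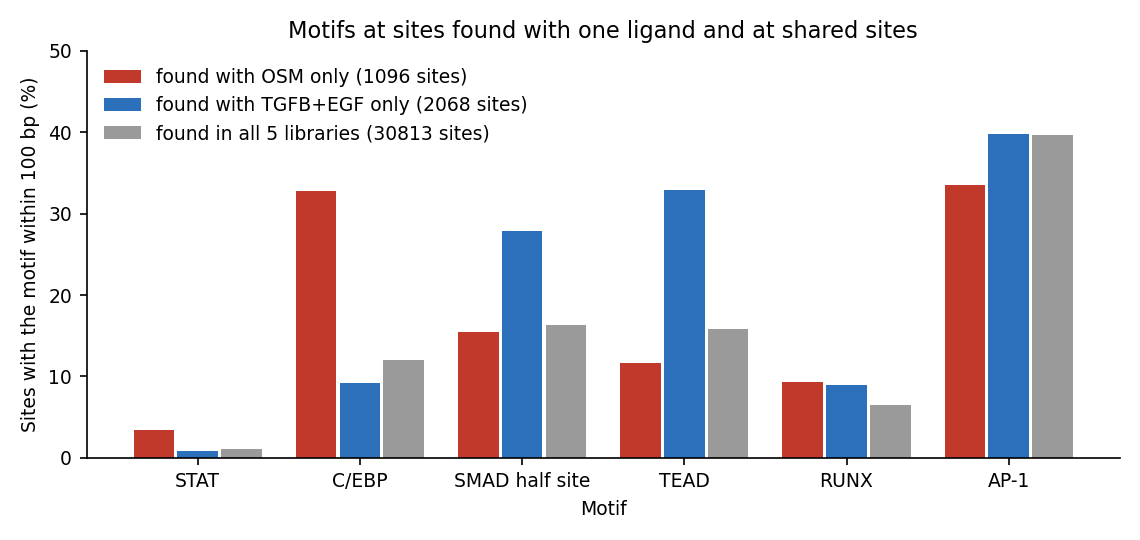
Share of sites (percent) with each string within 100 bp of the summit, for OSM-only sites, TGFB+EGF-only sites and sites with a peak in all 5 kept libraries. STAT and C/EBP are highest in the OSM-only sites (3.38% and 32.8%), and TEAD and the SMAD half-site in the TGFB+EGF-only sites (32.9% and 27.9%).

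The 7 libraries that took no part in choosing the sites were used to test them. For each, the number of OSM-only or TGFB+EGF-only sites detected was divided by the number expected from sites found in the same number of kept libraries. OSM 24 h C detected 335 of the OSM-only sites (1.89 times the expected number), OSM 48 h B 58 (2.64 times) and OSM 48 h C 336 (2.90 times). The TGFB+EGF libraries detected 17, 14, 22 and 14, at 0.940, 0.919, 0.386 and 1.04 times. All 3 OSM libraries were above all 4 TGFB+EGF libraries. At the TGFB+EGF-only sites the OSM ratios were 0.416, 0.907 and 0.326, and the TGFB+EGF ratios were 1.52, 1.22, 3.38 and 1.13. Here every TGFB+EGF library was above every OSM library. The log2 ratio differed by 1.58 at OSM-only sites and by -1.78 at TGFB+EGF-only sites (OSM minus TGFB+EGF; exact permutation within time, two-sided p = 0.0556 for each, the smallest that 18 assignments allow). Permuted over all 7 libraries without regard to time, the differences were 1.67 and -1.71 (exact p = 0.0286 for each, the smallest of 35 assignments). The other treatments lay lower at OSM-only sites: kept EGF libraries had 0.757 to 0.980, PBS 0.978 to 1.27 and IFNG with EGF 0.791 to 0.978 times the expected number, while HGF reached 1.43. The PBS library that was not kept, 48 h C, had 1.71. At TGFB+EGF-only sites all EGF libraries had 0.581 to 0.747, all PBS libraries 0.276 to 0.607, CTRL 0.674 to 0.805, HGF 0.447 to 0.548 and IFNG with EGF 0.482 to 0.930.

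**Figure D3:**
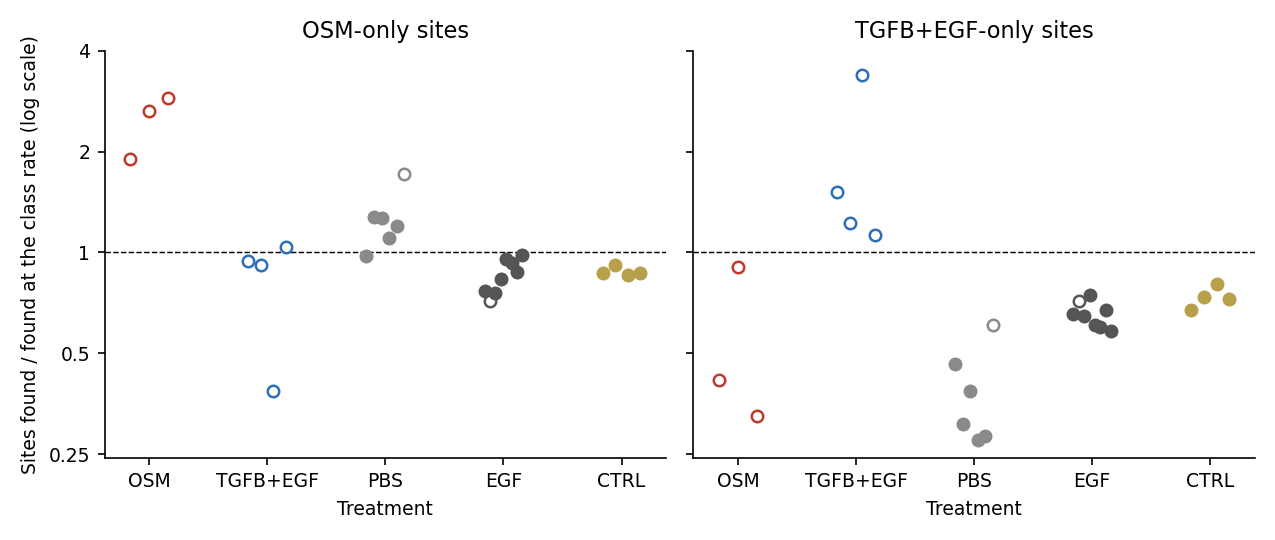
Detected over expected number (ratio, log axis, dashed line at 1) of OSM-only sites (left) and TGFB+EGF-only sites (right) in each OSM, TGFB+EGF, PBS, EGF and CTRL library, filled for libraries kept by the study and open for the others, with the 5 libraries that chose the sites left out. The OSM libraries lie at 1.89 to 2.90 for OSM-only sites and the TGFB+EGF libraries at 1.13 to 3.38 for TGFB+EGF-only sites.

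The peaks of the media at these sites were also counted. Of the OSM-only sites, 601 (54.8%) had a peak in at least 4 of the 7 kept EGF libraries, and 110 (10.0%) had none in any kept PBS or EGF library. Of the TGFB+EGF-only sites, 445 (21.5%) had a peak in at least 4 of the 7 kept EGF libraries and 40.1% had none in any kept medium library. Of the sites found in all 5 kept libraries, 97.8% and 0.16% did. The classes rest on 3 and 2 libraries, so their shares are not on the same footing, and with the adjustment EGF lay below the expected number at both, as given above. The STAT string was concentrated in the OSM-only sites that the media lacked, at 14.5% of the 110 against 1.16% of the 601 frequent in EGF. The C/EBP string was not, at 27.3% of the 110 and 30.6% of the 601. Among TGFB+EGF-only sites the SMAD half-site was found in 35.5% of the 899 with no peak in kept EGF libraries and in 21.1% of the 445 frequent in EGF. The TEAD string was found in 34.2% and 28.3% of them, and in 35.4% of the 65 with a peak in every kept EGF library.

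A motif deviation measures the same thing over all sites of a library: the percent by which the number of detected sites with a string lies above or below the number expected from the adjusted rates. Between the ligands directly, STAT and C/EBP stood apart without overlap. For C/EBP the OSM libraries had 3.29%, 2.79% and 2.87% at 24 h, then 12.1%, 5.89% and 8.47% at 48 h. The TGFB+EGF libraries had -8.07%, -13.8% and -29.8% at 24 h, then -10.2%, -29.3% and -10.4% at 48 h. Every OSM library was positive and every TGFB+EGF library negative, and the difference was 22.8 percentage points (exact permutation within time, two-sided p = 0.005, the smallest possible, adjusted p = 0.030 over 18 strings). For STAT the OSM libraries ranged from -5.55% to 12.5% (median 4.51%) and the TGFB+EGF libraries from -26.8% to -6.67% (median -18.0%), a difference of 21.6 points with the same exact p = 0.005 and adjusted p = 0.030. The most negative TGFB+EGF values belonged to libraries with few peaks, and in the 5 kept libraries the differences were 16.8 points for C/EBP and 14.0 points for STAT. Leaving out any 1 of the 12 libraries kept the STAT difference at 19.3 to 23.6 points and the C/EBP difference at 20.0 to 24.4, but the smallest possible p then rises. The adjusted exact p passed 0.05 for both strings without OSM 24 h A, B or C (0.09) or TGFB+EGF 48 h A (0.06), and for STAT also without OSM 48 h C (0.06). The STAT difference among the 4000 strongest peaks was 16.4 points and did not pass (adjusted exact p = 0.235).

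Of the 16 other strings, 2 passed: the p53 and p63 half-site (7.96 points higher with OSM, adjusted exact p = 0.045) and the SRF CArG box (10.5 points, adjusted exact p = 0.030), whose groups overlapped. Both lost the call in most leave-outs and when sites within 1000 bp of a start were removed (adjusted exact p = 0.060 and 0.0675), and the CArG box difference was 1.17 points in the kept libraries. TEAD was 10.8 points and the SMAD half-site 8.32 points lower with OSM, neither past the test (adjusted exact p = 0.0514 each). With a window of 50 bp both passed, at -15.2 points (adjusted exact p = 0.045) and -10.8 points (0.036). AP-1 differed by 3.19 points (adjusted exact p = 0.694) and RUNX by 0.24 points (0.985). None of the 18 strings passed when their letters were reversed, which keeps their composition but not the motif, with a lowest adjusted exact p of 0.090. The reversed GC box (CCCGCC) and CTCF core (CGGGGGA) still differed by 14.0 and 14.5 points (unadjusted exact permutation p = 0.035 and 0.045). The strings themselves differed by 14.3 and 13.9 points, with the same unadjusted exact p values, so these 2 were not set apart from their reversed forms.

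Against its own medium each ligand gave a different picture. These values use 108106 sites merged over the 26 OSM, PBS, TGFB+EGF and EGF libraries, and 36 tests were adjusted together. The STAT string rose with OSM: OSM libraries had 5.82% to 28.7% (median 19.7%) and PBS libraries -14.0% to -9.99% (median -13.1%), with no overlap and a difference of 31.1 points (exact p = 0.005, adjusted p = 0.0138). With TGFB+EGF the STAT deviations were -13.0% to 3.91%, against -11.9% to -2.64% with EGF, a difference of -0.42 points (adjusted exact p = 0.935). The STAT deviation was not high with OSM alone in the series. On the sites merged over the 12 libraries, kept IFNG with EGF libraries had 3.53% to 10.6% (median 7.86%) and kept OSM libraries 3.50% to 12.5% (median 5.52%). The C/EBP string showed the other pattern. With OSM it was 1.35% to 13.4% against -8.21% to 8.19% with PBS, a difference of 1.64 points (adjusted exact p = 0.771). With TGFB+EGF it fell, at -39.3% to -10.6% (median -16.4%) against -6.26% to 4.91% (median -2.20%) with EGF, a difference of -19.8 points with no overlap (exact p = 0.001, adjusted p = 0.0098). It was -9.13 points in the kept libraries. Over its own medium, C/EBP thus passed only for TGFB+EGF and STAT only for OSM, though the difference between the responses was not itself tested. The media differed as well. Kept PBS and EGF libraries had medians of 6.01% and -1.66% for C/EBP and of -12.9% and -2.93% for STAT. The direct difference therefore also holds the difference between the media, and these comparisons do not divide it between the ligands.

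The TEAD string rose with both ligands over their media. With OSM it was -1.67% to 0.85% (median -0.45%) against -17.0% to -7.35% (median -10.1%) with PBS, a difference of 10.2 points (exact p = 0.005, adjusted p = 0.0138). With TGFB+EGF it was 3.73% to 21% (median 15.8%) against -0.76% to 3.70% (median 0.29%) with EGF, a difference of 13.1 points (exact p = 0.001, adjusted p = 0.0098). Neither pair of groups overlapped, and the kept libraries gave 8.61 and 13 points. The OSM values lay near those of EGF alone. On the sites merged over the 12 libraries the median was -4.67% with OSM, -2.45% with EGF, -4.78% with HGF, -0.74% in CTRL and -14.0% with PBS, so PBS had the lowest median and TGFB+EGF, at 5.29%, the highest of these 6 treatments. The SMAD half-site rose with TGFB+EGF, at 1.94% to 17.9% against -2.98% to -0.16% with EGF (10.5 points, no overlap, adjusted exact p = 0.0098, 10.4 points in the kept libraries), and differed by 3.20 points with OSM (adjusted exact p = 0.165). Away from starts the SMAD difference was 6.41 points and did not pass (adjusted exact p = 0.141).

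In all, 7 of 18 strings passed for OSM over PBS and 11 for TGFB+EGF over EGF. The 3 that passed in both, in the same direction, were TEAD, the GC box (CCGCCC, bound by SP factors at promoters) and the CTCF core (AGGGGGC, from the site of the insulator protein CTCF). The last of these fell by 9.89 points with OSM and by 24.4 points with TGFB+EGF, and the GC box fell by 11.6 and 20.7 points. In the kept libraries these falls were smaller, by 6.90 and 10.0 points for the CTCF core and by 7.54 and 6.11 points for the GC box. Reversed strings were not tested over the media, so the falls of the GC box and CTCF core cannot be told apart from a change in base composition. RUNX (19.8 points, no overlap, adjusted exact p = 0.0138) and the CArG box of SRF (13 points, no overlap, adjusted exact p = 0.0138) passed for OSM over PBS. AP-1 passed there too (11.6 points, adjusted exact p = 0.030), but lost the call without any 1 of OSM 24 h A, B or C, OSM 48 h A or C, or PBS 48 h C (adjusted exact p = 0.054 to 0.188). On the sites merged over the 12 libraries, EGF, HGF and CTRL also lay away from PBS. RUNX medians were -21.7% with PBS, -2.48% with OSM, -3.21% with EGF, -7.98% with HGF and -0.40% in CTRL. In the same order AP-1 had -14.1%, -1.03%, -0.62%, -3.51% and 2.33%, and the GC box 25.5%, 1.32%, 10.1%, 10.3% and 6.15%. The CTCF core had 17.3%, 1.44%, 11.0%, 9.15% and 6.04%. For TGFB+EGF over EGF the CRE, ETS, p53 and p63, FOX and SNAI and ZEB strings also fell. Their differences were -19.0, -23.2, -6.71, -4.28 and -13.6 points. In the kept libraries they were -1.54, -3.96, -2.73, -7.38 and -5.41 points, smaller for all but FOX. The IRF string rose by 45.3 points but by 0.66 points in the kept libraries.

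**Figure D4:**
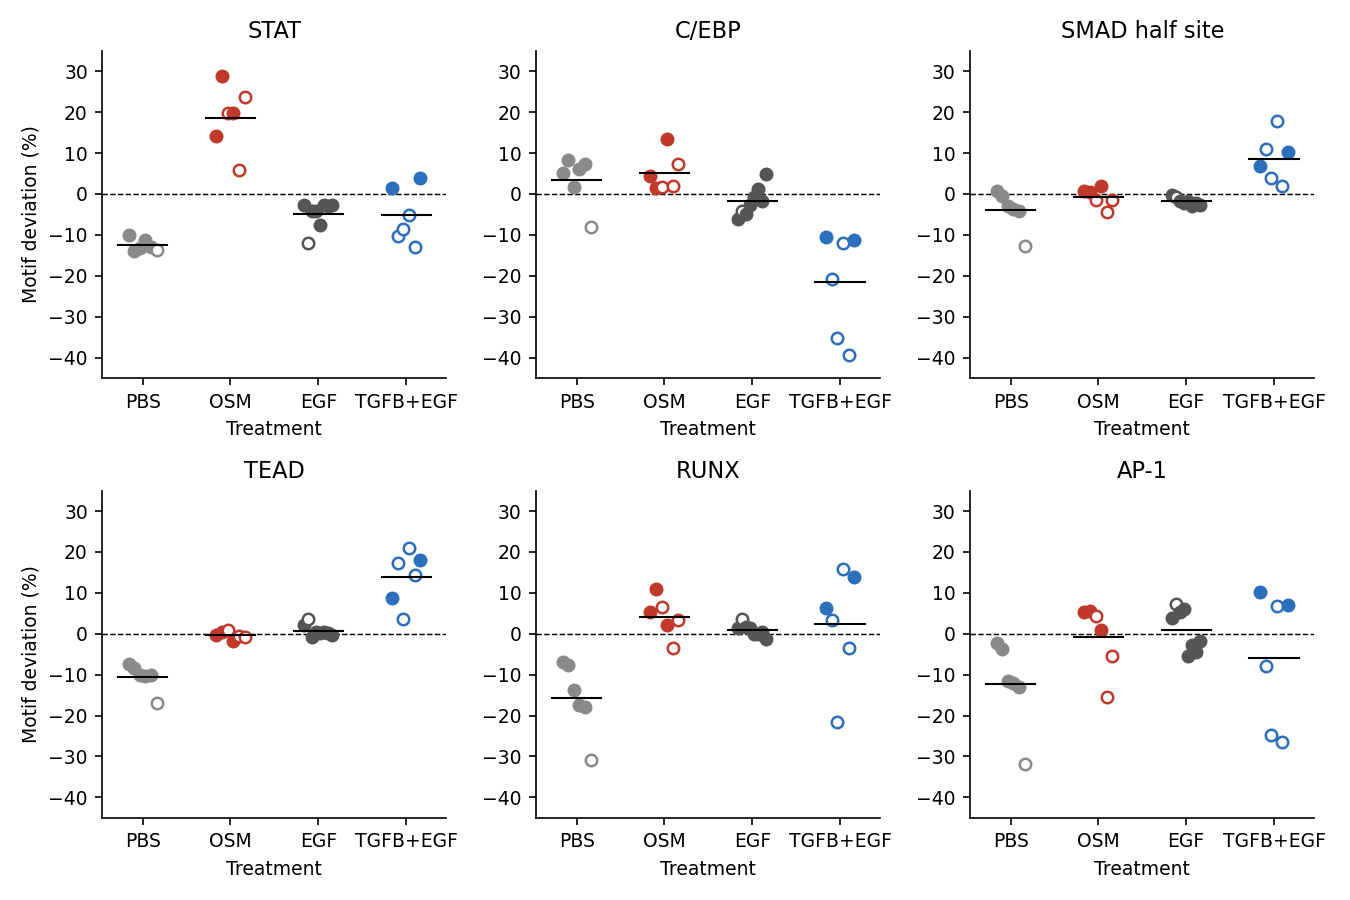
Motif deviation (percent, dashed line at 0) of 6 strings in each PBS, OSM, EGF and TGFB+EGF library, both times together, filled for kept libraries and open for the others, with a bar at the mean. Among these 4 treatments STAT is highest in OSM (median 19.7%), C/EBP is lowest in TGFB+EGF (median -16.4%), and TEAD is higher with each ligand than with its medium.

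About as many of the strongest open sites were shared between the ligands as were not. On average, 54.2% of the 4000 strongest peaks of a library (30 pairs of libraries, 34.3% to 68.9%) were among the 4000 strongest of another library with the same ligand, and 47.5% (36 pairs, 31.1% to 60.9%) of one with the other ligand. The difference of 6.71 points passed an exact permutation test within time (two-sided p = 0.030). Libraries of OSM shared 59.6% with each other and libraries of TGFB+EGF 48.8%. Likeness also followed peak number, whose part in it was not tested: OSM 48 h B, with 11798 peaks, shared 54.1% to 56.1% with the 4 TGFB+EGF libraries that were not kept, and TGFB+EGF 24 h A, with 108125, shared 60.9% with OSM 24 h A and 39.1% with TGFB+EGF 24 h B. The test no longer passed with the 2000 strongest peaks (6.57 points, exact p = 0.055) or without OSM 24 h A, B or C or OSM 48 h A or C (4.52 to 5.71 points, exact p = 0.055 to 0.065). Among kept libraries the shares were 65.5% (4 pairs) and 57.9% (6 pairs). Kept OSM libraries shared 61.4% with EGF and 54.9% with PBS, and kept TGFB+EGF libraries 55.5% and 46.5%. With CTRL the shares were 61.9% and 58.2%, with HGF 62.2% and 53.9%, and with IFNG with EGF 58.8% and 52.9%. Of these treatments PBS thus shared least with both ligands, and EGF did not share most with either. Those differences were not tested.

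**Figure D5:**
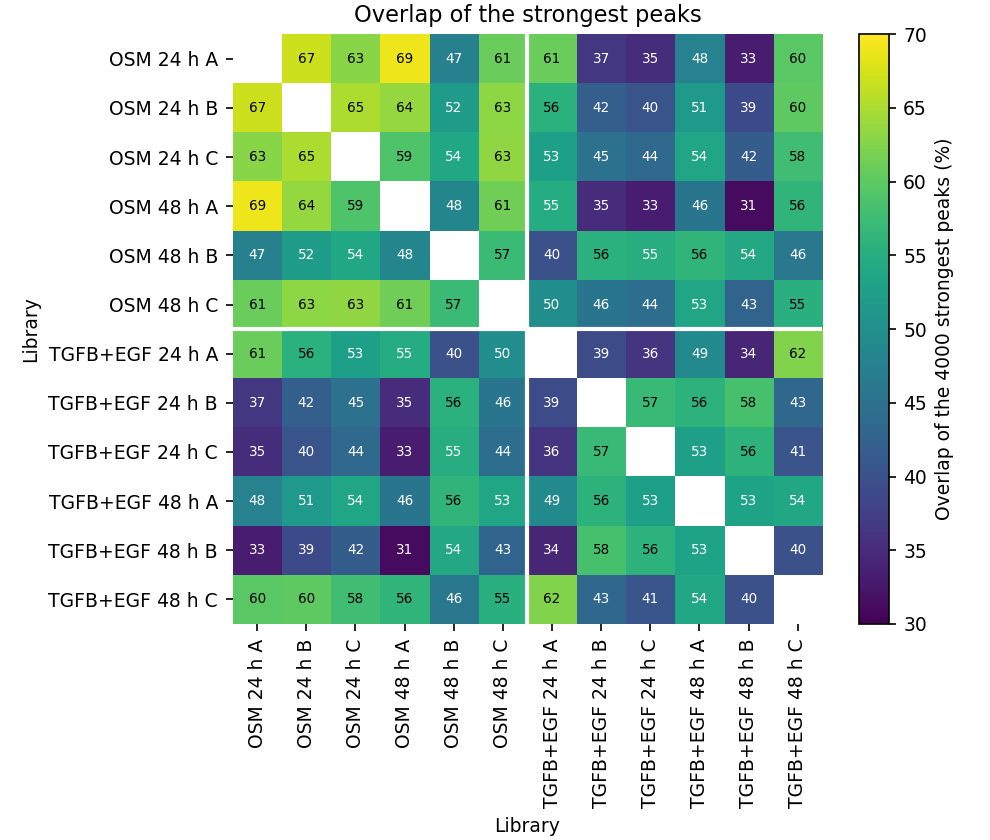
Heat map of the share (percent, by colour and by the number in each cell) of the 4000 strongest peaks that 2 libraries have in common, for each pair of the 12 libraries. The OSM libraries share most with each other, at up to 68.9%, apart from OSM 48 h B, and the kept TGFB+EGF 24 h A shares more with OSM 24 h A (60.9%) than with TGFB+EGF 24 h B (39.1%).

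The share of peaks within 1000 bp of a transcription start was 26.5% ± 4.16 (SD, n = 6) with OSM and 21.7% ± 4.34 (SD, n = 6) with TGFB+EGF, a difference of 4.81 points that did not pass (exact permutation within time, p = 0.075). In the kept libraries it was 1.16 points. It passed without OSM 24 h A (5.95 points, exact p = 0.030) or OSM 48 h A (6.08 points, exact p = 0.045). Restricted to each library's 4000 strongest peaks, it was 12.8 points (exact p = 0.010).

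Site by site, no single region passed the test between the ligands. In a limma fit of adjusted detection over 80638 sites, 0 sites (0%) were called at an adjusted p below 0.01 with a difference of at least 0.5 at 24 h, at 48 h or over both times. At an unadjusted p below 0.05 there were 1073, 5644 and 2858 sites, and the lowest adjusted p values were 0.824, 0.499 and 0.496. Nor did any site call for a difference between the times (1195 sites unadjusted, lowest adjusted p = 0.725). The sites of lowest p, none of them called and each named by its nearest gene start however far, belonged to GIPC2, RASGRP1 and FOXQ1 (higher with OSM) and UQCRFS1, SRGAP2C and ZNF254 (higher with TGFB+EGF) at 24 h, and to TENM2, SEMA4D and COL21A1 and CHMP4C, EXT1 and HECTD2 at 48 h. Over both times they belonged to FCAMR, GPR141 and SLC1A2 for OSM and HECTD2, SLC35F3 and GKN1 for TGFB+EGF. The GIPC2 site, in an intron at chr1:78092795-78092973, had 42, 12.4 and 12.8 in the OSM libraries at 24 h and 0 in the other 9 (limma adjusted p = 0.824). The UQCRFS1 and ZNF254 sites lay 2536508 and 2485033 bp from those starts. In the 1112 sites found in all 12 libraries, of which 24.5% lay near a promoter, 0 (0%) differed in the fold enrichment at the summit by limma (74 unadjusted), though weighting libraries by their quality called 73 at 24 h.

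The pattern of peaks at the leading sites is still worth giving in values. A total of 28 sites had a peak in all 6 OSM libraries and in none of 6 TGFB+EGF libraries, and 0 sites had the reverse, while 174 had a peak in at least 5 OSM and no TGFB+EGF library and 19 in at least 4 TGFB+EGF and no OSM library. These counts are not adjusted for peak number, and 3 TGFB+EGF libraries had only 4217 to 7540 peaks, so they do not compare the ligands. A C/EBP string was found in 53.6% of the 28, and 75.0% of them had a peak in at least 4 of the 7 kept EGF libraries. The site 28409 bp from FCAMR, at chr1:206998884-206999189, had 65.4, 17.6 and 10.1 at 24 h, then 70.1, 16.7 and 27.9 at 48 h with OSM, 0 with TGFB+EGF, a peak in 5 PBS, 3 CTRL, 5 HGF and 3 IFNG with EGF libraries and none in EGF (adjusted detection 0.68 higher with OSM, SE 0.21, limma adjusted p = 0.496). The intergenic site nearest HECTD2, which encodes a ubiquitin ligase of the HECT type, at chr10:91349379-91349728, had 20.5 in TGFB+EGF 24 h A and 13.1, 7.44 and 19.9 at 48 h, 0 in every OSM, PBS and EGF library and a peak in 1 CTRL library (0.83 higher with TGFB+EGF, SE 0.17, limma adjusted p = 0.496).

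Some sites were found with 1 ligand and in no other of the 42 libraries. With a peak in at least 4 libraries there were 19 such sites for OSM (0.0163% of the 116506) and 2 for TGFB+EGF (0.0017%). These counts too are not adjusted for peak number and do not compare the ligands. One of the OSM sites, nearest KYNU, a gene of the kynurenine pathway of tryptophan breakdown, at chr2:142642596-142643186, had 24.3, 10.2 and 5.46 with OSM at 24 h and then 21.4, 0 and 8.90 at 48 h. For TGFB+EGF the sites were an intron of WNT2, a secreted WNT ligand, at chr7:117283417-117283799 (39.5, 0 and 6.77 at 24 h, 7.69, 0 and 9.03 at 48 h) and an intron of LYSMD2 at chr15:51727399-51727953 (24.8, 5.43 and 5.49, then 0, 0 and 5.82). With at least 2 libraries there were 500 sites for OSM (0.429%) and 494 for TGFB+EGF (0.424%). Their strings were like those of the classes above: STAT 4.40% and 0.61%, C/EBP 29.8% and 8.5%, SMAD half-site 17.8% and 35%, TEAD 14.6% and 34.2%.

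Restricted to the 4000 strongest peaks of each library, 11 of 7152 sites (0.154%) were called over both times. All were more often among the strongest in TGFB+EGF (adjusted detection differed by -1.13, SE 0.19, limma adjusted p = 0.00417). Each was among the strongest in all 6 TGFB+EGF libraries and in no OSM library. They were not closed with OSM, since peaks below the cut of the 4000 strongest were called there in 3 to 6 libraries. That cut differed between libraries. The weakest of the 4000 had a negative log10 p of 5.90 to 47.9 in the TGFB+EGF libraries and 11.1 to 64.4 in the OSM libraries. The part of the unequal cut in these calls was not tested. The site 51998 bp from PLCB4, which encodes a phospholipase C, had 143, 18.6 and 16.8 at 24 h, then 33.7, 11.1 and 67.0 at 48 h with TGFB+EGF, and 49.4, 14.7 and 18.9 and then 13.4, 0 and 7.89 with OSM. It had a peak in all 8 EGF libraries and in 1 PBS library. Its summit lies in a tandem repeat whose units hold TEAD strings, and the part of the repeat in the peak strength was not tested. It is shown on the plus strand of hg38 with those strings in capitals:
near PLCB4, intergenic, chr20:9015787-9015867: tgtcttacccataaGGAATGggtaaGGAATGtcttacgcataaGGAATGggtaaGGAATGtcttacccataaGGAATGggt
The nearest genes of the other 10 sites were NRG3, CNTNAP3B, IKBKE, CCDC7, MRPL33, NR5A2, NARS2, KLF10, UGGT2 and PDXK. Of the 11 sites, 63.6% had an AP-1 and 54.5% a TEAD string. A further 26 sites were strongest in all 6 OSM and in no TGFB+EGF library without being called (difference 0.87, limma adjusted p = 0.0225), and 270 were strongest in all 12. The count of 11 fell to 0 without OSM 24 h A, OSM 24 h B, TGFB+EGF 24 h B or TGFB+EGF 48 h C, and rose to 57, 43 and 44 without OSM 24 h C, OSM 48 h A and OSM 48 h C. Without the adjustment for peak number it was 104.

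What both ligands did to sites of their media was fitted over the 17 kept libraries. Of 87845 sites, 12 (0.0137%) were called for a response common to both ligands, all lower (mean change -1.09 in adjusted detection, SE 0.15, limma adjusted p = 0.00841). Each had a peak in all 5 kept PBS and all 7 kept EGF libraries and in none of the 12 OSM and TGFB+EGF libraries, kept or not. They included introns of MAPKAPK2, a kinase downstream of p38, at chr1:206714525-206715362, of PRKAG2, a subunit of the energy-sensing kinase AMPK, at chr7:151689465-151689998, of the glutamate receptor gene GRM7, of RAB4A, a GTPase of endosome recycling, and of ZBTB7C and PPP4R3B. The median negative log10 p at the MAPKAPK2 site was 24.3 in PBS and 22.2 in EGF libraries, and at the PRKAG2 site 16.4 and 21.9. The others lay in an exon and between genes, near HSD11B2, CNTNAP5, DPP6, RGMA, WSB1 and ACER3. The PRKAG2 site, printed as the only 1 of the pair with an AP-1 string at its summit, reads on the plus strand of hg38:
intron of PRKAG2, chr7:151689689-151689769 (AP-1): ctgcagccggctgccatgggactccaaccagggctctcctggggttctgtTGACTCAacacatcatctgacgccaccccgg
The opposite pattern, a peak in all 5 kept OSM and TGFB+EGF libraries and in no kept PBS or EGF library, was found at 49 sites, none of them called. Of these, 10.2% had a STAT and 22.4% a C/EBP string. The 12 calls depended on single libraries. They fell to 0 with the sequencing lane as a term, and without any 1 of OSM 24 h A or B, PBS 24 h B or C, PBS 48 h A or B, EGF 24 h A, C or D, or EGF 48 h A or C, while 34 sites were called without PBS 24 h A. With all 26 libraries 3 were called, all higher.

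No site (0%) was called for OSM over PBS (11777 at an unadjusted p below 0.05, lowest limma adjusted p = 0.0185), for TGFB+EGF over EGF (10215, lowest 0.0151) or for a difference between those responses (10052, lowest 0.106). The last of these was led by sites near ABHD17C, SLC22A23 and RIOX1 and, in the other direction, POSTN, PLB1 and RBM6. The leading sites that did not pass had OXR1 and ZHX2 among their nearest genes for OSM (0.88 higher, adjusted p = 0.0546) and ST6GALNAC3, SPOCK1 and PLB1 for TGFB+EGF (adjusted p = 0.0151). The GPR141 site printed above led the sites lower with TGFB+EGF (-0.87, adjusted p = 0.0178). Without any 1 of OSM 24 h A, OSM 24 h B or PBS 24 h A, 1380 to 1596 sites were called for TGFB+EGF over EGF, although none of those libraries belongs to either group, and 22 for OSM over PBS without PBS 24 h A.

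Genes were then grouped by lists, counting a gene where an OSM-only or TGFB+EGF-only site lay within 50000 bp of a start. Of 20007 protein-coding genes, 965 (4.82%) had an OSM-only and 1460 (7.30%) a TGFB+EGF-only site, and no site near a listed gene passed the limma fit. Of 24 genes of the OSM and STAT3 response, 5 had an OSM-only site (CEBPB, SERPINB3, SERPINB4, S100A8 and S100A9) and 4 a TGFB+EGF-only site (SAA1, S100A7, S100A8 and S100A9). SERPINB3 and SERPINB4 share 1 site, and S100A8 and S100A9, which are neighbours, share all of theirs. A site 64 bp from the start of S100A9, a calcium-binding protein of inflamed epithelium, at chr1:153357448-153358045, had 47.9, 10.4 and 7.50 at 24 h, then 21.3, 0 and 0 at 48 h with OSM, and 0 in all TGFB+EGF libraries. It had a peak in 7 EGF and 4 PBS libraries. Another, 5802 bp from S100A8, its partner, at chr1:153384875-153385371, had 34.4, 5.86 and 9.45 and then 24.1, 0 and 7.54 with OSM, 0 with TGFB+EGF, and a peak in 1 EGF and 3 PBS libraries. A site 77 bp from the start of SERPINB3, a protease inhibitor of squamous epithelium, had a peak in 4 OSM and no TGFB+EGF library, with 19.8 as its highest value, and a peak in 4 EGF, 1 PBS, 4 CTRL, 3 HGF and 2 IFNG with EGF libraries. At the TGFB+EGF-only site of S100A8 and S100A9, 14608 bp from S100A9, the kept TGFB+EGF libraries had 9.07 and 6.10. At SOCS3, the feedback inhibitor of STAT3 signalling, the leading site had a peak in 5 OSM and 1 TGFB+EGF libraries (0.34 higher with OSM, limma adjusted p = 0.496), at BCL3, a STAT3 target of the IkB family, in 4 and 1 (0.26 higher, adjusted p = 0.496), and at OSMR, the OSM receptor, in 6 and 3 (0.13 higher, adjusted p = 0.581).

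Of 24 genes of the TGFB and SMAD response, 4 had an OSM-only site (SKI, TGFBR1, ID1 and BHLHE40) and 2 a TGFB+EGF-only site, TGFBI among them. The ID1 site also had a peak in 8 EGF, 6 PBS and 4 CTRL libraries, and the BHLHE40 site in 7, 5 and 4. The SKI site had one in 5 EGF, 1 PBS and 4 CTRL libraries, and the TGFBR1 site in 0, 1 and 2. TGFBI, a matrix protein induced by TGFB, had 31.4 and 10.1 in TGFB+EGF 24 h A and 48 h C and 0 in the other libraries of both ligands, at a site with a TEAD string. The leading site of SMAD7, the inhibitory SMAD, had a peak in 3 OSM and 3 TGFB+EGF libraries, and that of PMEPA1, another SMAD-induced inhibitor, in 5 and 1. The list as a whole had 16.7% and 8.33% of its genes by an OSM-only and a TGFB+EGF-only site, against 4.82% and 7.30% of all genes.

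Of 18 genes of the epithelial-mesenchymal transition, 7 (38.9%) had a TGFB+EGF-only site: VIM, CDH2, FN1, SNAI2, ZEB2, CALD1 and PRRX1. There were 2 (11.1%) with an OSM-only site, VIM and FN1. Some of the TGFB+EGF-only sites also had peaks in the media. The SNAI2 site had a peak in 7 EGF, 2 PBS and 4 CTRL libraries. The ZEB2 site had a peak in 2 EGF, 1 PBS and 4 CTRL libraries, and the VIM site in 2, 1 and 3. The PRRX1 site had none in these. At FN1, which encodes fibronectin, a site with a SMAD half-site at chr2:215460698-215461134, 24812 bp from the start, had 34.7, 0 and 5.78 at 24 h, then 8.02, 0 and 16.9 at 48 h with TGFB+EGF and 0 with OSM (0.83 higher with TGFB+EGF, SE 0.23, limma adjusted p = 0.496). It was absent from PBS, but had a peak in 1 EGF, 2 HGF and all 4 CTRL libraries. CDH2, the mesenchymal N-cadherin, had an intronic site with SMAD and TEAD strings at chr18:28065292-28065946, with 36.5 and 15.5 in the 2 kept TGFB+EGF libraries and 0 in the other 10. At another site of the same gene 5 OSM libraries and 1 TGFB+EGF library had a peak. CALD1, the actin-binding caldesmon, had 9.99 and 13.5, 1868 bp from its start, with SMAD, TEAD and RUNX strings, and no peak in PBS or EGF. The mesenchymal list therefore had more TGFB+EGF-only genes than the background share, on 18 genes and a rule resting on 2 libraries, and these genes were not called. The shares of this and the other lists were not matched for the number of sites near a gene. There were 117 sites near these 18 genes and 48122 near all 20007.

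Of 20 epithelial and junction genes, 1 had an OSM-only site and 3 a TGFB+EGF-only site. The OSM-only site lay 35623 bp from EHF, an epithelial ETS factor, at chr11:34585126-34585741, with 6.51, 5.22 and 0 and then 5.37, 0 and 6.59, and no peak in any other treatment. The TGFB+EGF-only genes were CDH1, which encodes E-cadherin, the epithelial factor GRHL2 and the desmosomal PKP1. The CDH1 site also had a peak in 6 EGF, 1 PBS and 4 CTRL libraries, and the GRHL2 site in 6, 1 and 3. The PKP1 site had none in these. Of 22 matrix and integrin genes 3 had each kind: LAMB3, TNC and ITGB6 with OSM and COL4A1, COL4A2 and LAMA3 with TGFB+EGF. The LAMA3 site also had a peak in 7 EGF, 3 PBS and 4 CTRL libraries. The TNC and ITGB6 sites each had a peak in 5 EGF libraries. LAMB3, a chain of laminin-332, had 19.9, 7.77 and 8.56 and then 19.1, 0 and 5.67 with OSM, a peak in 5 EGF and no PBS library. COL4A1 and COL4A2, neighbouring basement membrane collagens, had 17.6 and 12.7 in the kept TGFB+EGF libraries at chr13:110323171-110323586, a site with a SMAD half-site and no peak in PBS or EGF. Of 20 genes of the EGF receptor response, 3 had an OSM-only (EGR1, FOS and HBEGF) and 2 a TGFB+EGF-only site (HBEGF and AREG). HBEGF, a ligand of the EGF receptor, had a site 1806 bp from its start at chr5:140348285-140348533 with 29.9, 15.6 and 6.73 and then 9.99, 0 and 5.99 with OSM, no peak in TGFB+EGF, PBS or EGF, and a peak in 2 CTRL and 2 HGF libraries. Of the 10 housekeeping genes none had an OSM-only site and ACTB had a TGFB+EGF-only site. Basal markers had 3 and 1 of 10, with KRT5, the basal keratin, led by a site with a peak in 6 OSM and 1 TGFB+EGF libraries (0.42 higher with OSM, limma adjusted p = 0.496). That KRT5 site had no peak with EGF alone, but a peak in 2 PBS, 4 CTRL, 4 HGF and 2 IFNG with EGF libraries. Luminal markers had 1 and 0 of 10, and blood, endothelial and fibroblast markers 0 and 1 of 12.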

How the data were processed

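ATAC-seq libraries were made by the Omni-ATAC protocol from 50000 cells each. Per the labels and methods, reads were trimmed with Trimmomatic 0.36.5 and aligned to hg38 with Bowtie2 2.3.4.1, duplicates were marked with Picard, and the authors called peaks per library with MACS2 2.1.1.20160309.5 at a q of 0.01, without a control. The deposited fold enrichment is a ratio at the summit, and the deposited −log10 p-value and −log10 q-value belong to the same summit. The deposited score is made from the q value. No file gave read counts, so depth is unknown and no counting interval can be given. Intervals may hold several summits.

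Peaks of the 12 libraries were merged where they overlapped by at least 1 bp. For each site, detection (1 or 0) minus the rate of that library among sites found in the same number of libraries gave adjusted detection, which was fitted with limma 3.58.1 in R 4.3.3 and called at a Benjamini-Hochberg adjusted p below 0.01 with a difference of at least 0.5. Sites with a peak in at least 2 but not all libraries (80638) were tested. Motif strings within 100 bp of the summit were compared by exact permutation within time, two-sided, called at an adjusted p below 0.05. Genes came from GENCODE 44. Sites were named by the nearest gene start. The rule named, per comparison and direction, the 5 called sites of lowest p, or the 3 of lowest p where fewer than 3 were called, the 4 leading genes of each list, and SOCS3, BCL3, OSMR, SMAD7, PMEPA1, CDH1, KRT5, VIM and FN1. The other sites and genes described were chosen after their values were seen. Some items that the rule named are not reported here. Scripts were tested on simulated data. Groups were taken from the labels. Replicate letters did not pair libraries (correlations of same-letter deviations -0.11 to 0.13, 1 of 6 above 0.1), so no block was used in the main fits. The members, strings and gene lists were chosen with earlier results of these data known, and the comparison of motifs with each medium was added after the data were seen. Alternatives included other windows, filters, the 4000 strongest peaks, sequencing lane, array weights and leaving out each library.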

Additional observations from a re-analysis of the deposited data

Results flagged for a closer look

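A value apart from the other 3 was looked for in 60 sets of 4 values, each set from 1 group of 4 libraries. There were 4 beyond Dixon's critical value, and chance alone flags about 1 set in 20. All were motif deviations of EGF libraries. The AP-1 deviation was 0.70% in EGF 24 h A, the GRHL deviation 2.03% in EGF 24 h B, the STAT deviation -15.5% in EGF 48 h A and the GC box deviation 9.51% in EGF 48 h D.

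The RUNX deviation differed between OSM and TGFB+EGF by 10.5 points at 24 h and by -10.0 points at 48 h. The change of the difference between the times was -20.5 points (exact permutation p = 0.045, adjusted p = 0.810 over 18 strings), so it did not pass the correction. Among the 18 strings it was the only one with an unadjusted p below 0.05.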

How the results depend on the processing

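Depth is unknown, and with 3 libraries a group and peak numbers from 4217 to 109778 the site fits could call little. Ligand and EGF cannot be told apart in the direct comparison, and among its 12 libraries only OSM libraries were on lanes 4 and 8. Values that rest on the 5 kept libraries have 3 against 2 and no test. Leaving out OSM 48 h A, TGFB+EGF 24 h A or TGFB+EGF 48 h C empties a group of the fit over kept libraries, so some of those leave-outs were not run. The cause of the changes below was not tested.

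The STAT and C/EBP differences between the ligands, and those of STAT and TEAD with OSM and of C/EBP, TEAD and the SMAD half-site with TGFB+EGF over their media, kept their direction in all alternatives run. In the kept libraries the difference in peak number was -0.010. The promoter share differed by 12.8 points among the 4000 strongest peaks and by 2.94 to 6.08 points in the leave-outs. Likeness differed by 6.57 points with the 2000 strongest peaks and by 4.52 to 9.66 points in the leave-outs.

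Between the ligands, 0 sites were called by limma in every leave-out of all peaks, and 11 among the 4000 strongest. Without the adjustment for peak number these gave 68 sites at 24 h, 75 at 48 h, 104 over both times and 68 for the difference between times. The 11 became 0 to 57 in the leave-outs: 57, 43 and 44 without OSM 24 h C, OSM 48 h A and OSM 48 h C, 13 without OSM 48 h B, 12 and 18 without TGFB+EGF 24 h A and C, 14 and 18 without TGFB+EGF 48 h A and B, and 0 in the others. Array weights called 73 summits at 24 h.

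Over their media, unadjusted detection called 1616 sites for OSM, 3181 for TGFB+EGF, 804 in common and 3241 that differed. Array weights called 89, 2451, 1372 and 1068. All 26 libraries gave 3 in common and 1 for TGFB+EGF. The common response had 0 with lane as a term and 0 to 34 in the leave-outs, OSM had 0 to 22 and TGFB+EGF 0 to 1596.

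With the replicate block, which the data gave no reason to use, 0 strings passed between the ligands (adjusted exact p = 0.0703 at best), 0 for OSM over PBS and 0 for TGFB+EGF over EGF, and the common response had 0 sites. The smallest p that the blocked test allows is 0.03125. The STAT difference of TGFB+EGF over EGF was 0.075 points there. The block changed no other call for a site.

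Of the strings, 2 passed between the ligands for sites over 1000 bp from a start and 0 to 10 in the leave-outs. Some differences that did not pass changed sign. With a 50 bp window RUNX was -0.30, FOX 3.57 and, for TGFB+EGF over EGF, STAT 5.26 points. FOX was 6.63 points with classes by promoter position and GC content, and 3.05 away from starts. RUNX was -2.78 among the strongest peaks. In the kept libraries AP-1 was -4.20, RUNX -4.63, GRHL 5.22, IRF 1.07, FOX 4.90 and MAF -1.46 points. Over EGF the kept libraries gave AP-1 7.97, STAT 6.49 and the SRF CArG box 4.53 points. Away from starts C/EBP was -2.43 for OSM over PBS and RUNX -4.92 for TGFB+EGF over EGF. In the leave-outs the difference between ligands was -0.93 to 7.05 for AP-1, -2.30 to 1.21 for FOX and -2.16 to 3.67 for RUNX. It was -1.10 to 3.22 for C/EBP over PBS, and -1.51 to 4.98 for RUNX and -2.60 to 1.21 for STAT over EGF.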
